A study of Homo sapiens with 6 samples.

Results

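Kinesins are motor proteins that use ATP to walk along microtubules or to take them apart. The family was taken as every row of the expression table whose symbol is KIF, or KIFC, followed by a number, with antisense genes left out. This gave 30 of 12760 genes. By textbook role, 13 of them were mitotic motors, 13 were motors that move vesicles, organelles or other cargo (transport kinesins), and 4 were ciliary, signalling or less studied motors. GENCODE 29 lists 42 protein-coding genes with such symbols, and the other 12, among them the neuronal motors KIF1A and KIF5A, were not analysed here.

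The cells were MM.1S, a human line established from multiple myeloma, which is a cancer of antibody-secreting plasma cells. Libraries of 2 groups, 3 per group, were sequenced: cells given the solvent DMSO all along (WT) and cells selected in lenalidomide (LenR), a drug that redirects the cereblon ubiquitin ligase. The selecting dose began at 10 nM and went up 10-fold monthly during 3 months. WT stands for the parental genotype, and no engineered allele is given for either group. Replicates are labelled biological, but the labels do not state whether LenR came from 1 selection or several, or whether drug was present at harvest, so p-values cover only the spread of these libraries, and selection and current exposure cannot be told apart.

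Most kinesins walk toward the plus end of a microtubule, while the KIFC motors walk toward the minus end. Mitotic kinesins are made mainly in G2 and M phase, when they build the spindle, align chromosomes and organise the midzone where the cell divides, and KIF11 inhibitors have been tried as drugs in multiple myeloma. Transport kinesins work throughout the cell cycle and rely on light chains and adaptors to bind their cargo.

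The labelled cell type was checked on marker genes. All 8 plasma cell markers were present, with summed levels of 3340 to 3900 FPKM in WT and 4060 to 4870 FPKM in LenR (fragments counted per kilobase of gene, relative to library size). Of other cell types, 1 of 5 T and NK cell markers (CD3E, 1.86 to 2.90 FPKM), 1 of 2 erythroid markers (HBB, 5.55 to 8.31 FPKM), 1 of 4 epithelial and stromal markers (COL1A1, 0.254 to 0.429 FPKM), 1 of 3 neuronal markers (MAP2, 0.829 to 1.23 FPKM) and 0 of 4 myeloid markers had a row. Between 14500140 and 17387914 reads per library stood behind the table. The first principal component (58.1% of the variance) separated the groups, and the next (26.8%) set LenR replicate 2 (−13.69) and WT replicate 3 (−14.01) apart from the remaining 4 libraries, which were themselves spread from 2.62 to 12.67, with LenR replicate 3 at the far end. Values with and without these 2 libraries are given for the called kinesins and where they differ.

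Each gene was tested with limma on log2(FPKM + 1), with Benjamini-Hochberg adjustment over all 11276 genes whose mean over the 6 libraries reached 1 FPKM. A gene counts as called, and is said to have risen or fallen, when its adjusted p was under 0.05. Of the 30 kinesins, 28 were tested, and KIF13A and KIFC1 lay below the minimum level. KIF4A, KIF11 and KIF20B, all mitotic, and the minus-end motor KIFC3 fell in LenR, and the minus-end motor KIFC2 rose. These 5 of 28 genes (4 lower, 1 higher) stand against 15.1% called over all tested genes, 6.57% lower and 8.57% higher. The members' shares were 14.3% lower and 3.57% higher, and 21 of 28 had a log2 fold change below 0, against 50.5% of all tested genes. The other 23 kinesins missed the threshold, 6 of them (KIF2C, KIF14, KIF15, KIF18A, KIF23 and KIF24) at an unadjusted p under 0.05. With the 5 called genes these were 11 of 28 (39.3%), against 28.7% of all tested genes.

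**Figure D1:**
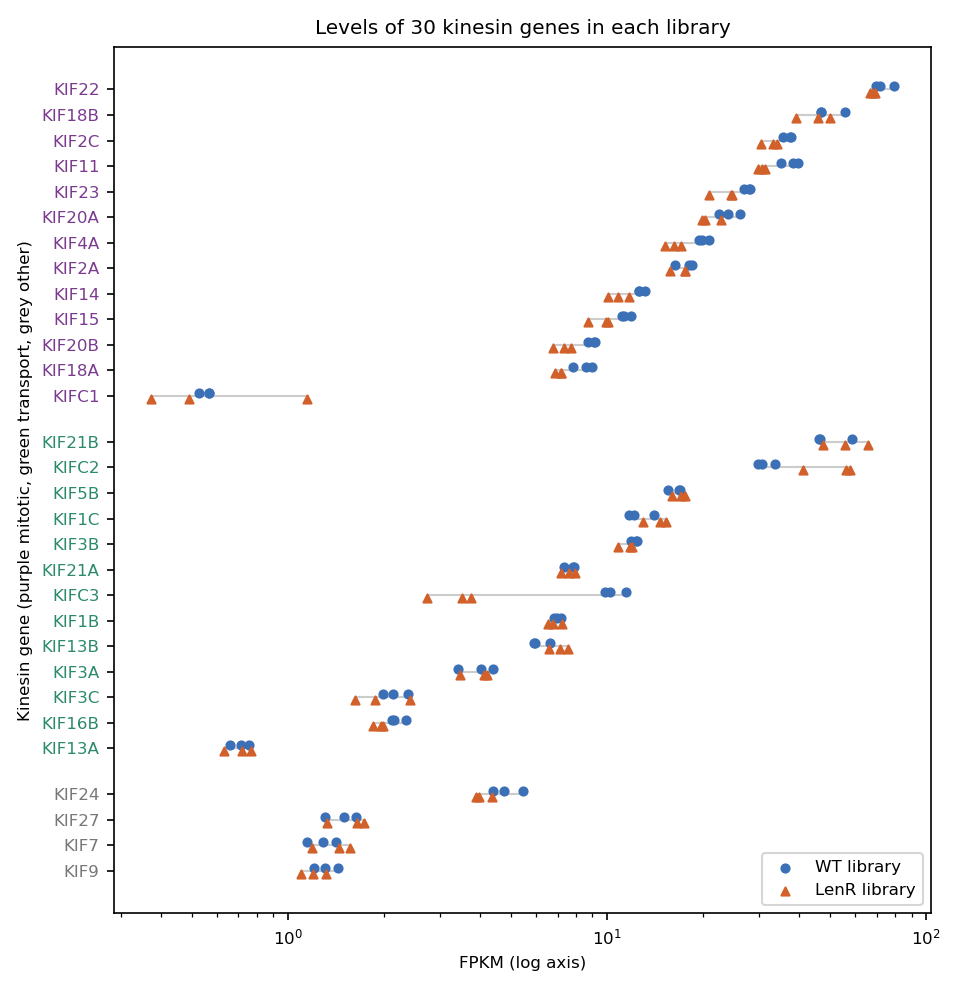
FPKM of the 30 kinesin genes in each library, on a log axis. Blue circles are the 3 WT libraries, orange triangles the 3 LenR libraries, and each grey line runs from the lowest to the highest value. LenR values lie left of the WT values for most mitotic genes by a small step, KIFC3 lies far left (2.73 to 3.76 against 9.86 to 11.5 FPKM) and KIFC2 to the right (41.2 to 57.5 against 29.8 to 33.5 FPKM).

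FPKM is a level per gene length, so kinesins can be set in order on the deposited values. KIF22, the mitotic motor KID that pushes chromosome arms away from the spindle poles, had the highest deposited level. Its values were 71.6, 69.5 and 79.2 FPKM in WT and 68.9, 68.3 and 66.8 FPKM in LenR. The LenR values all lay below the WT values, and the gene was not called (log2 fold change −0.11, 95% interval −0.28 to 0.07, adjusted p = 0.403). Its log2 difference was −0.05 without the 2 libraries that stood apart. KIF21B, a transport motor that also restrains microtubule growth in lymphocytes, came next with 46.4, 46.1 and 58.5 FPKM in WT and 55.8, 65.9 and 47.4 FPKM in LenR. KIF18B, which shortens astral microtubules in mitosis, followed with 46.8, 46.8 and 55.8 FPKM in WT and 45.8, 49.9 and 39.2 FPKM in LenR. The groups overlapped for both genes, and their levels overlapped each other, so their order is not resolved. Neither was called (KIF21B log2 fold change 0.16, 95% interval −0.17 to 0.48; KIF18B −0.15, −0.40 to 0.11). With 1 library left out, KIF21B ranged from 0.04 (without LenR replicate 2) to 0.27 (without WT replicate 3 or LenR replicate 3). KIF18B ranged from −0.22 to −0.06 and −0.05 (without WT replicate 3 and LenR replicate 3). The order rests on the gene lengths behind the deposited values. These were 0.562 times the GENCODE exon length for KIF22, 0.818 times for KIF21B and 0.921 times for KIF18B. Levels on GENCODE lengths were not computed, so the top rank of KIF22 holds for the deposited lengths only. KIF22 shares 561 exon bases (13.0% of its exons) with AC009133.4 on the opposite strand. The strand setting is not given, so reads of this pair cannot be told apart.

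The comparison of the mitotic kinesins asks whether the spindle motors of the resistant cells were expressed at the level of the parental cells. Of 13 mitotic kinesins, 12 were tested. All 12 (against 50.5% of all tested genes) had a log2 fold change below 0, from −0.30 (KIF4A) to −0.05 (KIF2A). Their median was −0.22, against 0.00 over all tested genes. KIF4A, KIF11 and KIF20B fell (3 of 12, 25.0%, against 6.57% of all tested genes) and none rose (against 8.57%). An unadjusted p under 0.05 was found for 8 of 12 (66.7%, against 28.7% of all tested genes), all in the lower direction. In 9 of 12 genes every LenR value lay below every WT value, against 16.5% of all tested genes. In none did every LenR value lie above, against 18.0% of all tested genes. In bulk RNA, fewer dividing cells and less mRNA per dividing cell cannot be told apart.

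KIF11 (chromosome 10, 92593286 to 92655395, GRCh38) is the kinesin-5 motor, also called Eg5, that slides antiparallel microtubules and pushes the spindle poles apart. Its level was 38.3, 39.5 and 35.0 FPKM in WT and 29.6, 30.6 and 31.3 FPKM in LenR, from 2190 to 3409 reads per library. The highest LenR library lay below the lowest WT library. The mean fell from 37.6 ± 2.34 to 30.5 ± 0.863 FPKM (SD, n = 3 in each group), a log2 fold change of −0.29 with SE 0.0707 and adjusted p = 0.0298 by limma. The log2 difference was −0.34 among the 4 remaining libraries and −0.19 between WT replicate 3 and LenR replicate 2.

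KIF4A (chromosome X, 70290090 to 70420832) is the chromokinesin that sets the length of the midzone microtubules together with PRC1. Its level was 19.9, 19.4 and 20.9 FPKM in WT and 15.2, 16.2 and 17.0 FPKM in LenR (994 to 1575 reads per library). Again the groups did not overlap, and the mean fell from 20.1 ± 0.754 to 16.1 ± 0.937 FPKM, with a log2 fold change of −0.30, SE 0.0686 and adjusted p = 0.0232. The log2 difference was −0.28 in the 4 libraries and −0.35 between the 2 that stood apart. KIF4B, a near-identical copy of KIF4A on another chromosome, was not analysed here, so the split of reads between both copies is uncertain.

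KIF20B (chromosome 10, 89701610 to 89774939), a kinesin-6 motor of late cytokinesis, had 9.15, 9.07 and 8.70 FPKM in WT and 6.78, 7.72 and 7.34 FPKM in LenR (637 to 1035 reads per library). No LenR library reached the WT range, and the mean fell from 8.97 ± 0.239 to 7.28 ± 0.472 FPKM, with a log2 fold change of −0.27, SE 0.067 and adjusted p = 0.0327. Here the 4 libraries gave a log2 difference of −0.33 and the other 2 gave −0.15. All 3 calls depended on single libraries. KIF11 was not called without 1 of these libraries: WT replicate 1 (adjusted p = 0.133) or 2 (0.142), LenR replicate 1 (0.101) or 2 (0.0602). KIF4A was not called without WT replicate 1 (adjusted p = 0.0939), 2 (0.0686) or 3 (0.0584) or LenR replicate 1 (0.0801). KIF20B was not called without WT replicate 1 (adjusted p = 0.135) or 2 (0.123), nor without LenR replicate 1 (0.102) or 3 (0.0632). With any 1 of WT replicates 1 and 2 or LenR replicate 1 left out, 0 of 12 mitotic kinesins were called. All 12 log2 fold changes stayed below 0, but that of KIF2A rounded to 0.00 without LenR replicate 1 (adjusted p = 0.993).

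Further motors of chromosome alignment and the midzone were not called. KIF23, the motor of the centralspindlin complex that drives cytokinesis, had 26.9, 27.9 and 28.1 FPKM in WT and 20.8, 24.5 and 24.6 FPKM in LenR. KIF2C (MCAK), which depolymerises microtubules at the kinetochore to correct wrong attachments, had 35.7, 37.4 and 37.8 FPKM in WT and 30.4, 34.0 and 33.0 FPKM in LenR. KIF20A (MKLP2), which carries the Aurora B complex to the midzone, had 22.4, 23.9 and 26.0 FPKM in WT and 19.8, 22.8 and 20.2 FPKM in LenR. The groups were apart for KIF23 and KIF2C and overlapped for KIF20A. None of the 3 was called: the log2 fold change of KIF23 was −0.24 (adjusted p = 0.0892), that of KIF20A −0.19 (0.179) and that of KIF2C −0.18 (0.126). KIF14, KIF15 and KIF18A, with means of 7.77 to 11.8 FPKM, had log2 fold changes of −0.23 to −0.21 without overlap between groups, and were not called either.

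The 2 libraries that stood apart bear on these counts. With both left out, KIF11, KIF20B and KIF18A were called among the mitotic kinesins (KIF18A adjusted p = 0.0416) and KIF4A was not (0.0629). With a term for their separation, 9 of 12 mitotic kinesins were called lower and 3163 genes in all. In every LenR library the 12 genes averaged below the WT mean, with differences of −0.27, −0.14 and −0.20 on the log2(FPKM + 1) scale in replicates 1, 2 and 3. LenR replicate 2 therefore lay nearest to WT.

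**Figure D2:**
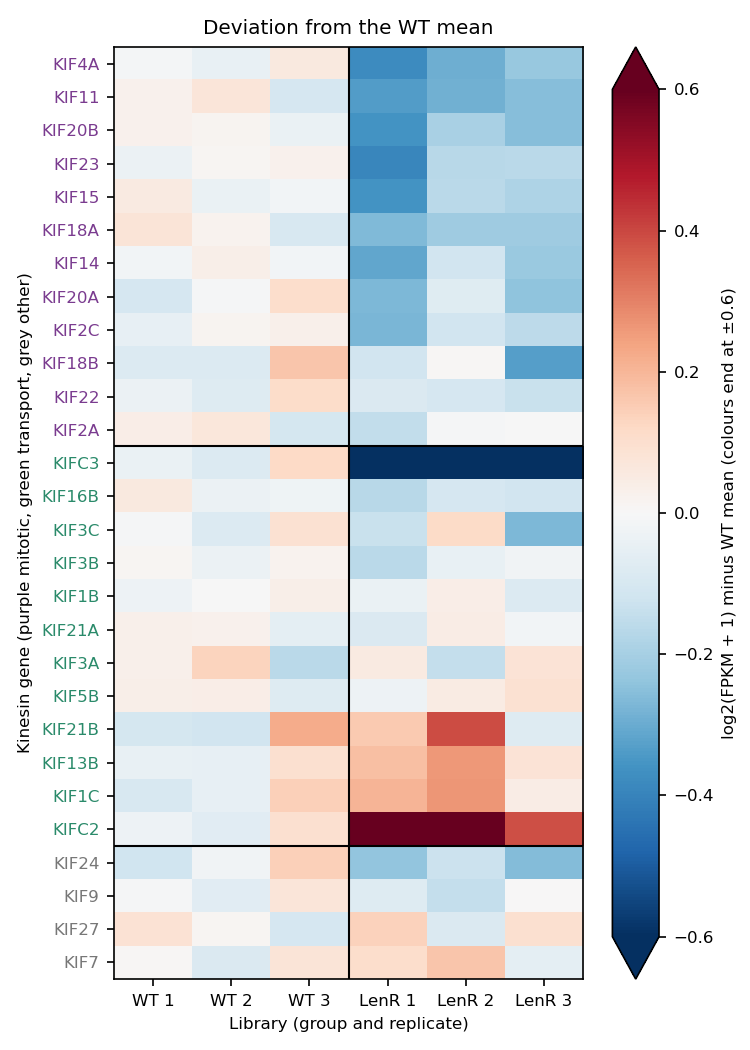
Difference of each library from the WT mean on log2(FPKM + 1) for the 28 tested kinesins, libraries in columns and genes in rows. Blue is below and red above the WT mean, and colours end at 0.6 in both directions. Of the 12 mitotic genes, 12, 11 and 11 lie below the WT mean in LenR replicates 1, 2 and 3, palest in replicate 2, while the transport genes show no common colour apart from the extremes KIFC3 and KIFC2.

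Mitotic genes share promoter elements, so the promoters of the 3 genes that fell and of KIF23 are shown, with that of 1 transport motor. RefSeq promoters (GRCh38.p14, 250 bases before to 50 after the start) were found for 25 of 30 kinesins. Each of these motifs was searched on both strands: CHR (TTTGAA), the cell cycle homology region bound by the MuvB complexes, and the CCAAT box bound by NF-Y. The 150 bases before the start are printed 5′ to 3′ on the gene's strand, with either motif, or its reverse complement, in capitals. They cover chr10:92592980-92593129 (KIF11, plus strand), chrX:70289954-70290103 (KIF4A, plus), chr10:89701440-89701589 (KIF20B, plus), chr15:69414199-69414348 (KIF23, plus) and chr5:132737547-132737696 (KIF3A, minus). KIF3A, the transport motor nearest to a fold change of 0, is shown for contrast.
KIF11: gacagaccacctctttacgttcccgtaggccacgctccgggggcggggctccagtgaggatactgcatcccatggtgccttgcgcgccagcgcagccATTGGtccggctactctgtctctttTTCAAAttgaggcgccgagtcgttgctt
KIF4A: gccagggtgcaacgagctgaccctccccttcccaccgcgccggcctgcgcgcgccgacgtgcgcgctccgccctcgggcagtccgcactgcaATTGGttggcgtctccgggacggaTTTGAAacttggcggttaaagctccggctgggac
KIF20B: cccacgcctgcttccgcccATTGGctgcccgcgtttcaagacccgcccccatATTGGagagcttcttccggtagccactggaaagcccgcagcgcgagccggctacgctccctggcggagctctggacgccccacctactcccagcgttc
KIF23: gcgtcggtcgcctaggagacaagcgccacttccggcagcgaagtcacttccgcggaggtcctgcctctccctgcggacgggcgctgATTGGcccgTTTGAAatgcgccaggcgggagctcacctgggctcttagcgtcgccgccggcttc
KIF3A: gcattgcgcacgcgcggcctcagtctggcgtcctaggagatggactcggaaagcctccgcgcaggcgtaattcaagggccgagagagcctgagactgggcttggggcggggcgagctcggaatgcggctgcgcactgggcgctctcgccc

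In KIF11, KIF4A and KIF23 a CHR lay within 55 bases of the start, 28, 34 and 55 bases before it by its first base. A CCAAT box lay upstream of each, 53, 58 and 64 bases before the start. KIF20B had CCAAT boxes 131 and 98 bases before the start and 2 adjacent CHR matches that began at bases 25 and 31 from the start, outside the printed stretch. The KIF3A promoter held neither. Of the 13 promoters of the 12 tested mitotic kinesins, 8 (61.5%) held a CHR and 9 (69.2%) a CCAAT box, against 15.2% and 34.6% of all 35116 promoters of that length. Among 10 promoters of 8 tested transport kinesins, 1 (10.0%, KIF5B) held a CHR and 4 (40.0%) a CCAAT box. Of the untested members, the KIFC1 promoter held both motifs and the KIF13A promoter neither. For the tested spindle partners described below, these were 13 (68.4%) and 16 (84.2%) of 19 promoters. These matches are letters in a window and do not show binding.

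KIFC1 (HSET), the minus-end motor that focuses spindle poles and clusters extra centrosomes, could not be read in these data. Its values were 0.528, 0.566 and 0.566 FPKM in WT and 0.373, 0.491 and 1.15 FPKM in LenR, from 44 to 163 reads. The groups overlapped, and the gene was too low to be tested. It lies at chromosome 6, 33391536 to 33409924, beside the MHC genes. From 2 Mb before to 0.1 Mb after it, a window set after its values were seen, 34 of 43 genes (79.1%) had a mean under 1 FPKM, against 11.6% of all genes, and their median was 0.453 against 9.85 FPKM. RPS18, a ribosomal protein gene that every cell uses, stood there at 3.14 FPKM. The gene length behind KIFC1's value was 8100 bases against 3345 bases of exons in GENCODE 29. No other kinesin had a length over 2 times its GENCODE exon length, while 38 of the 43 genes of the window and 175 of all genes did. KIFC1 was therefore kept out of all sums below.

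**Figure D3:**
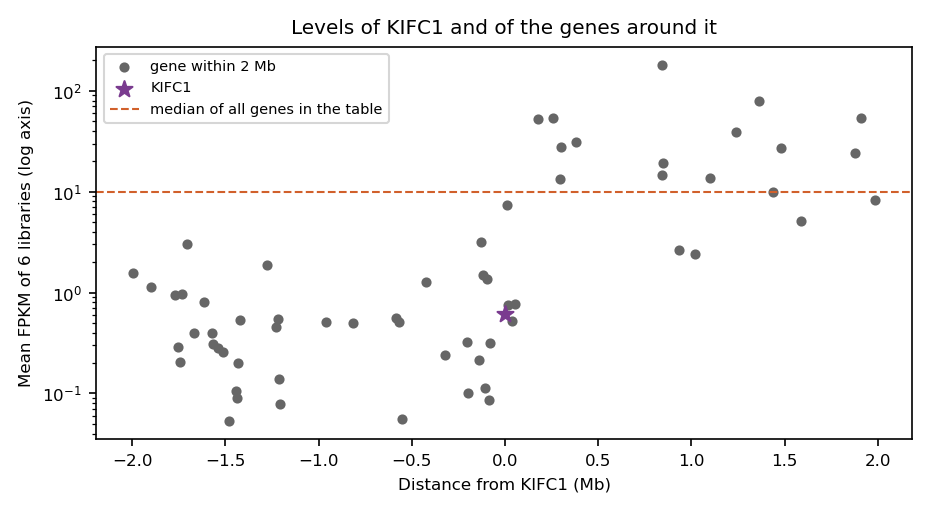
Mean FPKM over the 6 libraries (log axis) of KIFC1 (purple star) and of the genes within 2 Mb (grey circles) by distance from KIFC1. Genes left of KIFC1 and just right of it lie mostly under 1 FPKM, below the dashed line at 9.85 FPKM, the median of all genes in the table, and genes farther right spread around that line.

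Among transport kinesins, 12 of 13 were tested, 1 rose, 1 fell and 10 were not called. The calls were 8.33% each way, near the 8.57% higher and 6.57% lower of all tested genes. The log2 fold changes of the transport kinesins ran from −1.42 to 0.69 with a median of −0.01, 5 above 0 and 7 below. KIFC3 and KIFC2, the members at both ends, are minus-end motors of the kinesin-14 group like KIFC1.

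KIFC3 (chromosome 16, 57758217 to 57863053) is a minus-end motor of apical transport, Golgi positioning and adherens junctions. Its level was 10.2, 9.86 and 11.5 FPKM in WT and 3.76, 3.51 and 2.73 FPKM in LenR, from 177 to 664 reads per library. All LenR libraries lay far below all WT libraries. The mean fell from 10.5 ± 0.884 to 3.33 ± 0.537 FPKM, 0.316 times the WT level. On log2(FPKM + 1) the log2 fold change was −1.42, with SE 0.105 and adjusted p = 0.000155. The pseudocount of 1 shrinks this change, and voom on recovered reads gave −1.68. Only 16 of the 11276 tested genes had a lower log2 fold change. The call held under all 20 alternatives tried, and the log2 difference was −1.39 in the 4 remaining libraries and −1.48 between the 2 that stood apart.

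KIFC2 (chromosome 8, 144466043 to 144474202), a minus-end motor known best from the dendrites and axons of neurons, went the other way. Its values were 30.6, 29.8 and 33.5 FPKM in WT and 55.9, 57.5 and 41.2 FPKM in LenR, from 1597 to 2976 reads per library. Every LenR library lay above every WT library, with LenR replicate 3 nearest to WT. The mean rose from 31.3 ± 1.93 to 51.5 ± 8.99 FPKM, 1.65 times the WT level, a log2 fold change of 0.69 with SE 0.128 and adjusted p = 0.00946. The log2 difference was 0.65 in the 4 libraries and 0.76 in the other 2. Without LenR replicate 1 the adjusted p was 0.0542, and the call held under the other 19 alternatives. KIFC2 shares 791 exon bases (17.8% of its exons) with FOXH1 on the opposite strand, and FOXH1 had no row of its own. Since the strand setting of the counting is not given, reads of the pair cannot be told apart.

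The chromosomal surroundings of these 2 genes were unlike. Within 5 Mb of KIFC2, 58 of 59 tested genes had a log2 fold change above 0, with a median of 0.48, and 39 of them were called higher. KIFC2 itself was exceeded by 7 of them, among them C8orf82 (1.21) and MFSD3 (0.95) close by, named after their values were seen. Within 5 Mb of KIFC3, 38 tested genes had a median log2 fold change of −0.07, 25 below 0 and 13 above, with NDRG4 called higher (0.41) and NLRC5 called lower (−0.53). None of the 38 lay below KIFC3. The neighbours of KIF11, KIF20B and KIF4A had medians of −0.02 (49 genes), −0.04 (33 genes) and 0.03 (37 genes). The part of the surrounding shift in the KIFC2 value was not tested. Surroundings were examined for kinesins and not for the called partner genes described below. Among those, HMMR and DCTN4 lie on chromosome 5 and TUBA4A on chromosome 2. RACGAP1, TUBA1A and E2F7, all lower, and NFYB, which was higher, lie on chromosome 12. JAKMIP1 lies on chromosome 4, TUBB2A and TUBB2B on chromosome 6 and DYNC1I1 on chromosome 7. Whether their values share a shift with their neighbours was not tested.

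**Figure D4:**
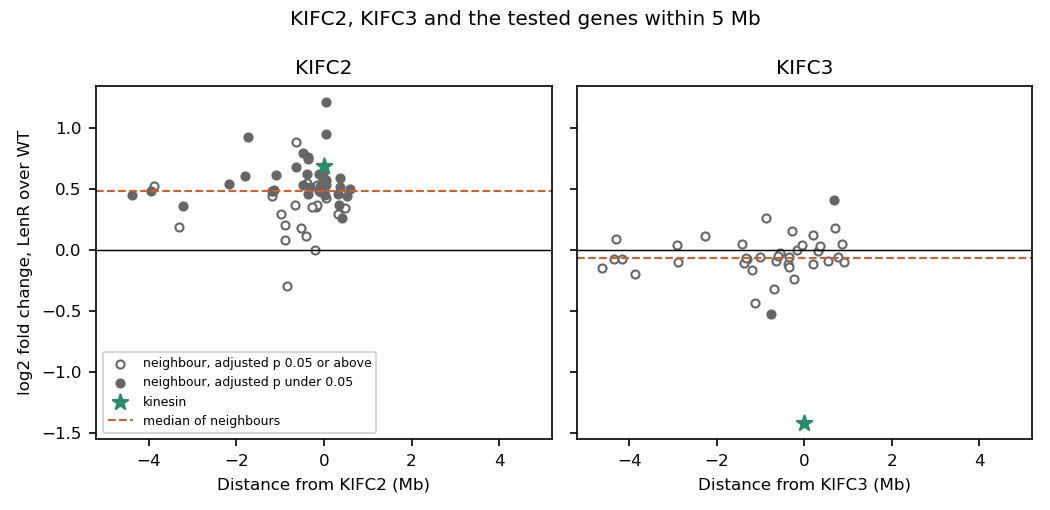
Log2 fold change (LenR over WT) of KIFC2 (left panel) and KIFC3 (right panel), drawn as stars, and of the tested genes within 5 Mb, by distance in Mb. Filled circles are neighbours with an adjusted p under 0.05, open circles the others, and the dashed line is the neighbours' median, 0.48 around KIFC2 and −0.07 around KIFC3.

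The plus-end cargo motors with the best known roles showed no call. KIF5B, the heavy chain of conventional kinesin (kinesin-1) that carries mitochondria, lysosomes and vesicles, had 16.8, 16.9 and 15.5 FPKM in WT and 16.0, 17.0 and 17.5 FPKM in LenR. The values of both groups were mixed (log2 fold change 0.04, 95% interval −0.12 to 0.20, adjusted p = 0.773). KIF3A and KIF3B form the kinesin-2 motor of cilia and post-Golgi transport. KIF3A had 4.03, 4.40 and 3.41 FPKM in WT and 4.11, 3.46 and 4.22 FPKM in LenR, and KIF3B 12.3, 11.9 and 12.4 FPKM in WT and 10.8, 11.8 and 12.0 FPKM in LenR. Their log2 fold changes were 0.00 (95% interval −0.23 to 0.23) and −0.07 (−0.22 to 0.08), and both overlapped between groups. KIF1B, a kinesin-3 motor of mitochondria and lysosomes, had 6.80, 6.95 and 7.15 FPKM in WT and 6.76, 7.20 and 6.53 FPKM in LenR (a log2 fold change of −0.03, 95% interval −0.17 to 0.12). KIF1C, a kinesin-3 motor of dense core vesicles and integrins, had 11.7, 12.1 and 14.0 FPKM in WT and 14.6, 15.3 and 13.0 FPKM in LenR. LenR replicate 3 lay inside the WT range, and KIF1C was not called (log2 fold change 0.17, 95% interval −0.04 to 0.37, adjusted p = 0.263). KIF13B, KIF16B, KIF21A and KIF3C, with means of 2.07 to 7.63 FPKM, had log2 fold changes of −0.13 to 0.17 and were not called. KIF13A, the untested transport motor, averaged 0.708 ± 0.0483 FPKM in WT against 0.705 ± 0.0694 FPKM in LenR.

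**Figure D5:**
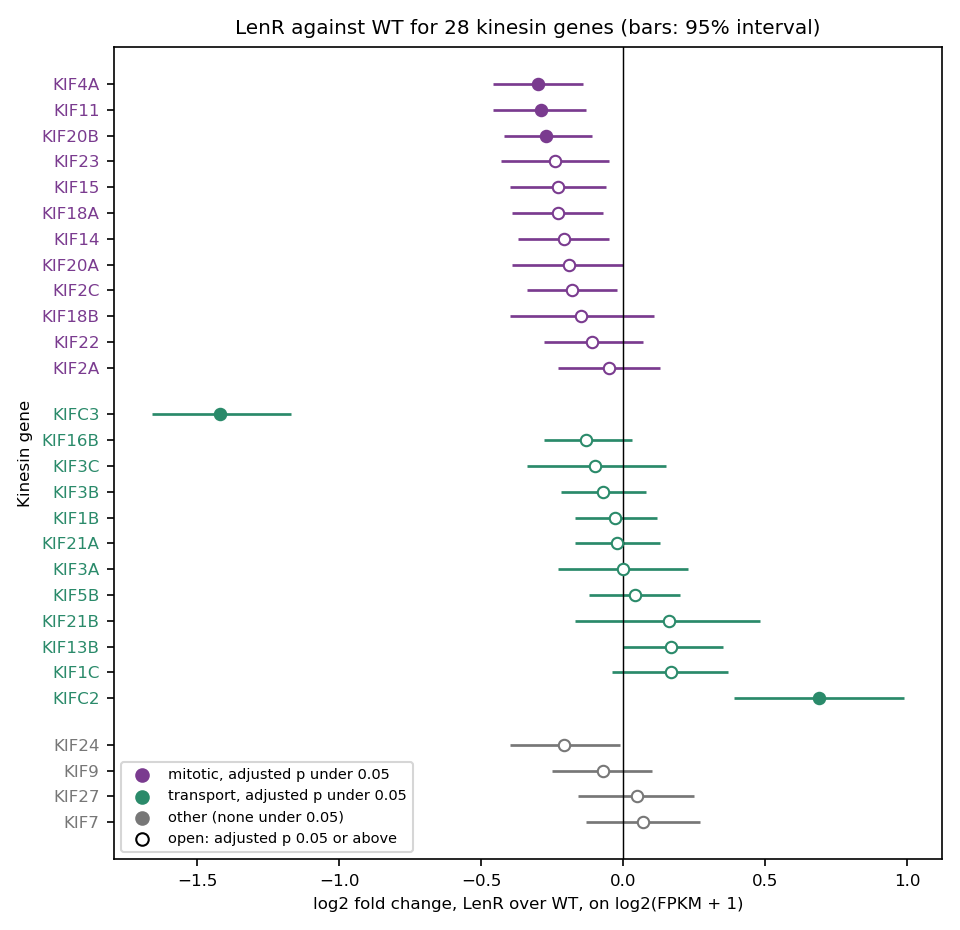
Log2 fold change (LenR over WT, on log2(FPKM + 1)) of the 28 tested kinesins with 95% intervals from limma, grouped by role. Filled points have an adjusted p under 0.05. The 12 mitotic points form a narrow band from −0.30 to −0.05, and the transport points centre near 0 apart from KIFC3 (−1.42) and KIFC2 (0.69).

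Summed over genes, the mitotic kinesins made up a smaller share of kinesin mRNA in LenR. Their summed level was 322, 325 and 339 FPKM in WT and 279, 301 and 285 FPKM in LenR, a mean of 329 ± 9.07 against 288 ± 11.4 FPKM. Of the sum over 29 kinesins, this was 65.9%, 66.3% and 64.8% in WT and 58.9%, 58.8% and 62.5% in LenR. The groups did not overlap on either measure. The transport kinesins summed to 163 ± 10.1 FPKM in WT and 184 ± 19.6 FPKM in LenR, and to 132 ± 8.66 and 132 ± 11.7 FPKM without KIFC2. Leaving KIFC2 out, the mitotic share was 70.0% ± 0.737 in WT and 67.2% ± 1.31 in LenR, a smaller difference than with it. No test was made on these sums.

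None of the other 4 kinesins was called by limma, with KIF24 at an unadjusted p under 0.05, and voom on recovered reads called none. KIF24, a motor-like protein that restrains cilium formation, had 4.38, 4.76 and 5.46 FPKM in WT and 3.96, 4.35 and 3.89 FPKM in LenR (a log2 fold change of −0.21, adjusted p = 0.152). KIF7, a Hedgehog pathway regulator, KIF9 and KIF27 had means of 1.26 to 1.53 FPKM and log2 fold changes of −0.07 to 0.07. With so low a level, log2(FPKM + 1) understates their fold changes.

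Most partners of the mitotic motors lay on the same side of 0 as the motors. Of 20 tested spindle and midzone partners, 19 had a log2 fold change below 0, with a median of −0.19, 12 of the 20 (against 28.7% of all tested genes) had an unadjusted p under 0.05, and in 13 of the 20 (against 16.5%) every LenR value lay below every WT value. By calls the share was 10.0% lower, against 6.57%. RACGAP1 and HMMR fell, and none rose. RACGAP1, which binds KIF23 to form centralspindlin, had 48.3, 48.9 and 49.2 FPKM in WT and 38.3, 39.1 and 39.8 FPKM in LenR, a log2 fold change of −0.31 with SE 0.0604 and adjusted p = 0.0111. HMMR, a spindle pole protein, had 16.9, 17.2 and 14.4 FPKM in WT and 12.4, 11.8 and 13.6 FPKM in LenR (a log2 fold change of −0.33, adjusted p = 0.0432). The groups stood apart for both genes. CENPE, the kinesin-7 motor of chromosome congression that carries another name, was not called (log2 fold change −0.19, adjusted p = 0.129). No partner was called without WT replicate 1 (RACGAP1 adjusted p = 0.0626, HMMR 0.159) or 2 (0.0674 and 0.161), and HMMR was not called without LenR replicate 1 (0.138) or 2 (0.103). With both libraries that stood apart left out, 6 partners were called.

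The adaptors of the transport motors gave 1 call. Of 19 tested light chains, adaptors and regulators, JAKMIP1 fell (5.26%, against 6.57% of all tested genes) and none rose, and the median log2 fold change was 0.01. JAKMIP1, a microtubule-binding partner of kinesin-1, had 19.8, 18.9 and 21.8 FPKM in WT and 15.1, 14.5 and 12.1 FPKM in LenR, a log2 fold change of −0.51 with SE 0.0965 and adjusted p = 0.010. The groups were apart. The kinesin light chain KLC1 (log2 fold change −0.19, adjusted p = 0.108) and the KIF3 adaptor KIFAP3 (−0.16, 0.285) were not called.

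Dynein, the minus-end motor that opposes most kinesins, and its activator dynactin had 23 tested subunits and regulators with a median log2 fold change of −0.10. DCTN4 and DYNC1I1 fell and none rose, a share of 8.70% lower that is near the 6.57% of all tested genes. DCTN4, a dynactin pointed-end subunit, had 10.3, 9.15 and 9.06 FPKM in WT and 5.64, 6.50 and 6.64 FPKM in LenR (a log2 fold change of −0.53, adjusted p = 0.00388). DYNC1I1, a dynein intermediate chain, had 1.95, 2.24 and 2.77 FPKM in WT and 1.22, 1.41 and 1.38 FPKM in LenR (a log2 fold change of −0.50, adjusted p = 0.013, and 0.0654 without LenR replicate 1). At so low a level the pseudocount shrinks the change of DYNC1I1, and voom on recovered reads gave −0.77. LenR lay below WT in every library for both.

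Among 13 tested tubulins, the building blocks of the microtubule track, 4 fell (30.8%, against 6.57% of all tested genes) and none rose, and 6 of 13 had a log2 fold change above 0. TUBB2B had 5.96, 5.89 and 5.69 FPKM in WT and 2.18, 1.53 and 1.73 FPKM in LenR, a log2 fold change of −1.29 with SE 0.0913 and adjusted p = 0.000135. The pseudocount shrinks the change of TUBB2B, and the alternatives gave −1.71 to −1.22. TUBB2A, its near-identical neighbour, had 2.54, 2.62 and 3.51 FPKM in WT and 1.92, 1.26 and 1.53 FPKM in LenR (−0.60, adjusted p = 0.017). Reads of this pair may be split between them, so each value is uncertain. TUBA1A had 8.86, 9.70 and 14.6 FPKM in WT and 7.13, 6.78 and 6.17 FPKM in LenR (−0.62, adjusted p = 0.0384). Without the 2 libraries that stood apart, the log2 difference was −0.43 for TUBA1A and −0.39 for TUBB2A, smaller than with them, and WT replicate 3 was the highest library for both. The TUBA1A call was lost without WT replicate 2 (adjusted p = 0.0607) and without LenR replicate 1 (0.107), 2 (0.066) or 3 (0.0906). The fourth was TUBA4A (−0.46, adjusted p = 0.0235), named after its value was seen and not called without WT replicate 1 (0.0578) or without LenR replicate 1 (0.0907) or 3 (0.0599).

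The 16 tested transcription factors linked to mitotic and other cell cycle genes include repressors as well as activators. NFYB rose and E2F7 fell (6.25% each way, against 8.57% higher and 6.57% lower of all tested genes). The median log2 fold change was −0.05. NFYB, a subunit of the NF-Y factor of CCAAT boxes, had 11.3, 11.6 and 9.53 FPKM in WT and 17.4, 17.1 and 19.6 FPKM in LenR, a log2 fold change of 0.69 with SE 0.0912 and adjusted p = 0.00188. The NF-Y subunits NFYA (log2 fold change −0.09, adjusted p = 0.435 by limma) and NFYC (−0.11, 0.614) were not called. E2F7, a repressor of E2F targets, had 21.2, 21.3 and 21.2 FPKM in WT and 17.6, 18.5 and 17.3 FPKM in LenR (−0.24, adjusted p = 0.0313). The groups were apart for NFYB and E2F7. With 1 library left out, E2F7 kept its call only without LenR replicate 2 (adjusted p = 0.0431) and gave 0.0608 to 0.135 without each of the other 5.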

How the data were processed

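Total RNA was sequenced in 6 MM.1S libraries, and the authors deposited 1 table of FPKM values. The submitters' processing notes name FastQC 0.11.9, HISAT2 2.2.1, featureCounts 2.0.3, edgeR 3.40.2 and the build hg38, without roles. For the annotation and the strand setting, the sources used here give nothing.

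Within a gene the FPKM values are multiples of 1 read's worth, so reads and gene lengths were recovered for all 12760 genes (tolerance 0.03 of a read, 119 genes after a common rescaling). The median was 511 reads per gene and library.

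Deposited values were used without rescaling as log2(FPKM + 1), for genes whose mean reached 1 FPKM, in limma 3.58.1 (R 4.3.3, trended empirical Bayes, 3.75 prior degrees of freedom, group as the only term, two-sided). Intervals are limma's 95% intervals. The fit was tested on simulated independent libraries, without a split like that of the libraries that stood apart. That simulation does not bear on calls that depended on single libraries. Positions came from GENCODE 29 (GRCh38), where 12406 genes had a single position. Neighbours are tested genes within 5 Mb of a kinesin. Figures used matplotlib 3.10.9.

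The kinesins, the lists of roles and partners, the test and the 20 alternatives were chosen with earlier results of these data known. Every called kinesin, the 3 with the highest mean, the largest changes in both directions and motors with clear textbook roles were described in full, as were at most 3 called genes per direction of each partner list. Samples were grouped by their titles.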

Additional observations from a re-analysis of the deposited data

How the results depend on the processing

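The replicate numbers did not pair the samples: deviations from the group means correlated at 0.024, −0.557 and −0.683 between samples of the same number. With the replicate block, 907 genes, 2 kinesins (KIFC2 and KIFC3), 0 mitotic kinesins and 0 spindle partners were called, against 1707, 5, 3 and 2 without it. Of the other partner genes named, the block ended the calls of JAKMIP1 (adjusted p = 0.0503), TUBA1A (0.0713), TUBA4A (0.105) and E2F7 (0.214). Averaging WT replicates 1 and 2 gave 1052, 2, 0 and 0. Adding a term that set WT replicate 3 and LenR replicate 2 apart gave 3163, 13, 9 and 11, and leaving both out gave 6 spindle partners. A minimum mean of 5 FPKM gave 1075 genes. Leaving out 1 library at a time gave 1006 to 1562 genes, 1 to 5 kinesins, 0 to 3 mitotic kinesins, 1 to 2 transport kinesins and 0 to 3 spindle partners. Some of these settings leave fewer samples or genes, and the cause of the moves was not tested.

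Small log2 fold changes turned sign in some fits. KIF5B went from 0.04 to 0.00 without WT replicate 3 and to −0.01 without that library and LenR replicate 2. KIF3A, at 0.00, gave 0.04 with WT replicates 1 and 2 averaged and −0.08 to 0.07 without 1 library (highest without LenR replicate 2). Without 1 library, KIF1B ranged from −0.06 to 0.00, KIF21A from −0.05 to 0.01 and KIF27 from 0.00 to 0.12. The other 23 tested kinesins kept their sign under every alternative run. Among them, KIF2A rounded to 0.00 without LenR replicate 1, and KIF9 without WT replicate 3 and LenR replicate 2. KIF11 was called in 14 of 20 alternatives, KIF4A and KIF20B in 13 each, KIFC2 in 19 and KIFC3 in 20. Pseudocounts of 0.1 and 0.5, no filter, median-ratio scaling and voom on recovered reads left the same 5 kinesins called. Scaling to the same FPKM total ended the KIF20B call (adjusted p = 0.07 by limma) and left KIF11 at 0.0444 and KIF4A at 0.0485. Quantile normalization added KIF18A (0.0424).

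Genes near 1 FPKM, such as KIF7 and KIF9 with 63 to 113 reads per library, are limited by depth. KIF7 also shares 589 exon bases (11.8% of its exons) with TICRR on the opposite strand. TICRR had a mean of 11.8 FPKM, against 1.34 FPKM for KIF7. KIF9 shares 870 exon bases (14.9%) with KIF9-AS1 on the opposite strand. Since the strand setting of the counting is not given, reads of these pairs cannot be told apart.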
